A study of Mus musculus with 12 samples.

Results

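miR-124 is a microRNA (miRNA) of neurons, and the reads described here are those that align to its hairpin precursors in the mouse, mmu-mir-124-1, mmu-mir-124-2 and mmu-mir-124-3. They were chosen by name, as 3 of 997 annotated precursors and of 1532 precursors in all, the others having been predicted by the submitters. Together they took 2748853 of 62878432 counted reads, or 4.372%, as 701 to 1352 distinct sequences per library. Small RNAs came from the retina of db/db mice on a KsJ background, a strain that is obese and diabetic because its leptin receptor does not work. The 6 libraries labelled model are read as db/db mice without the agent, and the other 6 are from db/db mice given Keluoxin, a Chinese herbal capsule. Age, dose and duration are not stated in the labels, and no non-diabetic mice were analysed, so each comparison is within diabetic mice. RNA extraction is described for an exosome pellet, although tissue and source are labelled as retina. Whether each library is an animal of its own is not labelled; p-values here rest on the spread over libraries, part of which may be technical.

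A miRNA gene is transcribed as a long primary RNA, in which the Drosha complex cuts out a hairpin, and Dicer then removes the loop. A strand of the resulting duplex, here mainly the one from the 3′ side (miR-124-3p), enters an Argonaute protein, and the other (miR-124-5p) is mostly lost. Bases 2 to 8 of the loaded strand, the seed, pair with target mRNAs, so the position of the 5′ end sets which mRNAs are bound. miR-124 is known as an abundant miRNA of brain and retinal neurons that represses transcripts of other cell types. The host RNA of mir-124-1, also called Rncr3, is needed for the survival of cone photoreceptors in mice.

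The 3 hairpins are shown because their differences decide which reads can be assigned to a copy. Capitals mark the most frequent 5p read of 21 nt and the 3p read of 20 nt, T stands for U, and all are written 5′ to 3′ as in the deposited tables.
mir-124-1: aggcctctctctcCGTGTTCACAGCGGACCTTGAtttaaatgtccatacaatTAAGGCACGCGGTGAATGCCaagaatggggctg
mir-124-2: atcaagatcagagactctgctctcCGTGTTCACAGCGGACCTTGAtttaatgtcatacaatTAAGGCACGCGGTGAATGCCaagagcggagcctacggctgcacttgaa
mir-124-3: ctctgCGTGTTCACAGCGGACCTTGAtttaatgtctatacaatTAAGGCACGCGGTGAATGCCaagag
In the GRCm38 assembly each matched a GENCODE M21 miRNA transcript exactly, on the plus strand and within an exon of a long non-coding RNA. mir-124-1 (Mir124a-1, 85 nt) lies on chromosome 14 at 64590657 to 64590741, in Mir124a-1hg. mir-124-2 (Mir124a-2, 109 nt) lies on chromosome 3 at 17795662 to 17795770, in Mir124-2hg. mir-124-3 (Mir124a-3, 68 nt) lies on chromosome 2 at 180894040 to 180894107, in Gm27032. The copies are identical over 26 bases from the first base of the 5p arm and over 24 bases from the first base of the 3p arm. Accordingly 99.43% of miR-124 reads fitted all 3 copies, and levels are given for the arms and not for the copies.

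The mature reads differed mainly at their 3′ ends. The 5 most frequent 3p sequences are shown with the seed of each read in capitals, to show that the fourth begins 1 base upstream and so carries another seed.
miR-124-3p read 1: tAAGGCACgcggtgaatgc
miR-124-3p read 2: tAAGGCACgcggtgaatgt
miR-124-3p read 3: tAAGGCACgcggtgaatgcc
miR-124-3p read 4: tTAAGGCAcgcggtgaatgc
miR-124-3p read 5: tAAGGCACgcggtgaatga
These made up 23.9%, 15.2%, 8.61%, 7.68% and 5.90% of the 3p reads of all libraries. Reads 2 and 5 carry the substitutions C19T and C19A against the hairpin (hairpin base, position from the main 3p start, read base), at their last base. The 5 most frequent 5p sequences, with seeds in capitals, share 1 start.
miR-124-5p read 1: cGTGTTCAcagcggaccttga
miR-124-5p read 2: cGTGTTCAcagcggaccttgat
miR-124-5p read 3: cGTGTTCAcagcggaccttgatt
miR-124-5p read 4: cGTGTTCAcagcggaccttg
miR-124-5p read 5: cGTGTTCAcagcggaccttgac
They made up 21.8%, 14.4%, 7.24%, 5.69% and 2.96% of the reads of the 5p arm. Read 5 carries T22C at its last base.

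The libraries held 1933375 (Keluoxin replicate 5) to 7892147 (model replicate 3) counted reads. Levels are counts scaled to library size (CPM), with sizes scaled by TMM. Across 811 arms tested with edgeR's quasi-likelihood test, 140 passed a Benjamini-Hochberg adjusted p of 0.05, which is 17.3%, with 75 higher and 65 lower in Keluoxin. The first principal component held 52.6% of the variance, and on it model replicate 1 sat with the Keluoxin libraries; without that library 244 arms passed. The summed CPM of the erythroid marker miRNAs (miR-451a and miR-144) ranged from 23.78 to 44.58 in model and from 28.95 to 652.9 in Keluoxin, and 1 of the 3 arms, the 1 that was tested, was higher. The liver marker miR-122-5p ranged from 1.182 to 4.893 CPM and from 2.383 to 41.2, and was higher. Of the muscle markers, 298.2 to 427.1 CPM in model and 285.9 to 1913 in Keluoxin, 1 of 4 tested arms was higher. The endothelial marker miR-126a was lower without overlap (1597 to 2122 and 1099 to 1415 CPM), with 1 of 2 arms called. Lower calls were also made for 2 of 6 photoreceptor arms, 1 of 3 epithelial and 1 of 4 glial arms. The lower glial arm was miR-219a-1-3p, with means of only 2.3 and 1.1 CPM. The summed glial markers were higher in Keluoxin, at 124.1 ± 9.9 CPM in model and 146.4 ± 12.3 CPM in Keluoxin, with overlap. No lower call was made for 8 arms of the neuronal markers, which include miR-124, or for the pigment epithelium, mural and leukocyte markers. Their sums still differed in mean, with overlap in each. Model and Keluoxin stood at 121300 ± 6421 and 100400 ± 12960 CPM for neurons and 10730 ± 1033 and 11230 ± 647.5 for pigment epithelium. They stood at 3213 ± 574.6 and 4352 ± 1451 for mural and 12.68 ± 4.056 and 19.27 ± 5.299 for leukocyte markers. The photoreceptor sum was 384800 ± 24770 and 311200 ± 72080. The part of these in the miR-124 values was not tested.

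miR-124-3p was among the most abundant miRNAs of every library, ranking 3 to 11 of 811 arms, as is known for neural tissue. Its level in the model libraries had a lowest value of 36390, a median of 47760 and a highest of 56810 CPM, and in the Keluoxin libraries 27650, 36250 and 48070. The groups overlapped: Keluoxin replicates 2, 4 and 5 lay within the model range, and replicates 1, 3 and 6 below the lowest model library. The means were 46620 ± 6759 and 36960 ± 7978 CPM (SD, n = 6 each), a log2 fold change of −0.33 (SE 0.15), which did not pass (edgeR adjusted p = 0.132). In bulk tissue, fewer neurons and less miR-124 per neuron cannot be told apart.

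miR-124-5p, the passenger strand, ranked 56 to 78 of the 811 arms. Its level counts all reads of the 5p side, among them the offset reads of mir-124-2 described further on. Those took 4.06% to 22.99% of the reads of that side, and the level without them was not computed. Its lowest, median and highest values were 865.3, 1286 and 1805 CPM in model and 873.5, 1095 and 1127 CPM in Keluoxin. All 6 Keluoxin libraries lay within the model range, and 5 of them lay close together, between 1073 and 1127 CPM. The means were 1337 ± 332 and 1061 ± 93 CPM (SD, n = 6 each), with a log2 fold change of −0.33 (SE 0.16), which did not pass (edgeR adjusted p = 0.150). Neither of the 2 miR-124 arms was thus called. Both fold changes were below 0 under all scalings tried, and both passed with upper-quartile scaling (−0.61, adjusted p = 0.0481, and −0.60, adjusted p = 0.0434), which moved the median of all arms to −0.23 from 0.03. Scaling to total reads, which moved that median to 0.22, gave −0.13 for each arm (adjusted p = 0.618 and 0.611), and reads without mismatch gave −0.13 for 3p (adjusted p = 0.556) and −0.31 for 5p (adjusted p = 0.189). The adjusted p ranged from 0.0481 to 0.618 for 3p and from 0.0434 to 0.611 for 5p over the alternatives. The 5p arm also passed without model replicate 2, its lowest model library (−0.44, adjusted p = 0.0438).

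**Figure D1:**
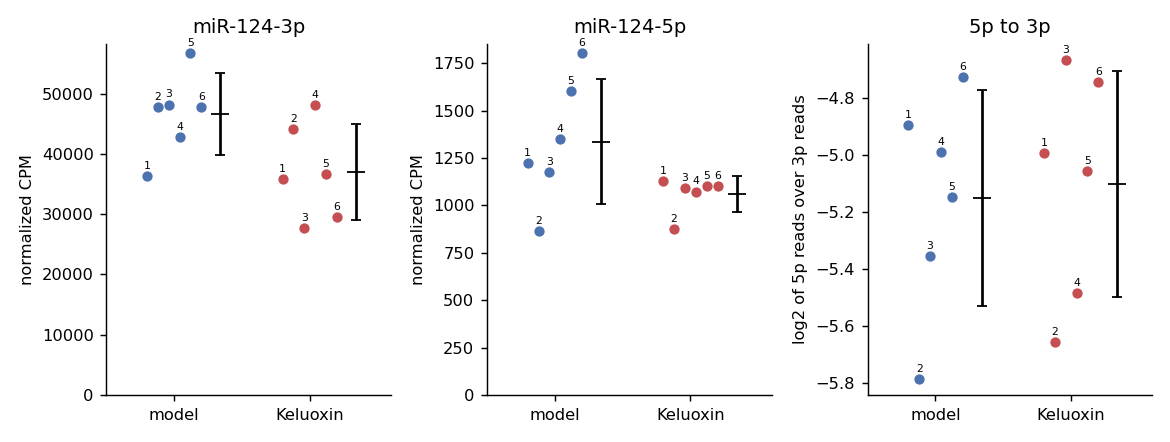
Level of each miR-124 arm in normalized CPM, and log2 of 5p over 3p reads, for each library (points, labelled with the replicate number; bars show mean ± SD, n = 6). The groups overlap in all 3 panels: for 3p the model libraries span 36390 to 56810 CPM and the Keluoxin libraries 27650 to 48070.

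The balance between the strands was set by comparing 5p with 3p reads in the same library, which needs no scaling. The 5p reads here include the offset reads of mir-124-2, which lie outside the mature arms. These took 4.18% to 11.8% of 5p-side reads in model and 4.06% to 22.99% in Keluoxin, and the ratio without them was not tested. A library held 25.38 to 55.23 reads of the 3p side for each read of the 5p side. The log2 ratio had a lowest value of −5.79, a median of −5.07 and a highest of −4.73 in model, and of −5.66, −5.02 and −4.67 in Keluoxin. The 2 ranges were nearly the same, and in each group replicate 2 was the lowest. The difference was 0.05 (SE 0.23, limma adjusted p = 0.923); of 147 precursors tested in the same way, 22 passed, which is 15.0%. The sign of this difference turned in reads without mismatch (−0.14, adjusted p = 0.720) and without model replicate 2, Keluoxin replicate 3 or Keluoxin replicate 6.

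The 5′ end of miR-124-3p was fixed at a main and a secondary base. The main base began 75.0% ± 0.58 of 3p reads in model and 74.8% ± 0.60 in Keluoxin (SD over 6 libraries each), and the base before it began 24.69% ± 0.61 and 25.01% ± 0.62. Across the 12 libraries the secondary start took between 23.6% and 25.9%, and these reads carried the seed TAAGGCA instead of AAGGCAC. The difference did not pass for the main start (exact two-sided permutation test, p = 0.563, adjusted p = 0.711) or for the secondary start (p = 0.394, adjusted p = 0.709; both adjusted over 9 measures). Of 1679 mature mouse miRNAs in a RefSeq sequence table that is not complete and does not include miR-124 itself, 1, mmu-miR-5624-3p, has the upstream seed, UAAGGCA. On the 5p side, 84.5% ± 3.5 and 82.1% ± 7.4 of reads began at the main base (adjusted p = 0.711), with most of the other reads coming from the offset fragment of mir-124-2 described further on.

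The 3′ end of miR-124-3p varied more, and the exact 20-nt read took a larger share in Keluoxin. Lengths here are those of the listed reads, and main-start reads of 20 to 24 nt were listed without any differing last base, as described further on. Among listed reads 19 nt was the most frequent length in every library, with 51.3% to 56.5% of 3p reads in model and 46.5% to 52.9% in Keluoxin. The exact 20-nt read (read 3 above) had a lowest share of 5.38%, a median of 6.94% and a highest of 8.60% in model, and 7.94%, 11.2% and 12.3% in Keluoxin. Only Keluoxin replicate 2 lay within the model range. The means were 7.04% ± 1.12 and 10.8% ± 1.70 (SD, n = 6 each), and the difference of 3.72 percentage points passed (exact two-sided permutation test, p = 0.00433, adjusted p = 0.0195 over 9 measures).

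The mean length of 3p reads, by contrast, moved little. It was 19.32 ± 0.10 nt in the model libraries and 19.45 ± 0.09 nt in the Keluoxin libraries (SD, n = 6 each; by exact permutation test, p = 0.0303, adjusted p = 0.0909), and it passed only without Keluoxin replicate 2 (0.17 nt, adjusted p = 0.0195). In limma over the 413 arms that had 50 or more reads in each library it did not pass either (adjusted p = 0.123), where 6.05% of arms were longer. The exact 18-nt read ending at G18 took 5.89% ± 1.10 of 3p reads in model and 3.31% ± 0.97 in Keluoxin, and the exact 19-nt read, read 1, took 24.7% ± 0.92 and 22.8% ± 1.49. These shares were not tested, and in both the groups overlapped.

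**Figure D2:**
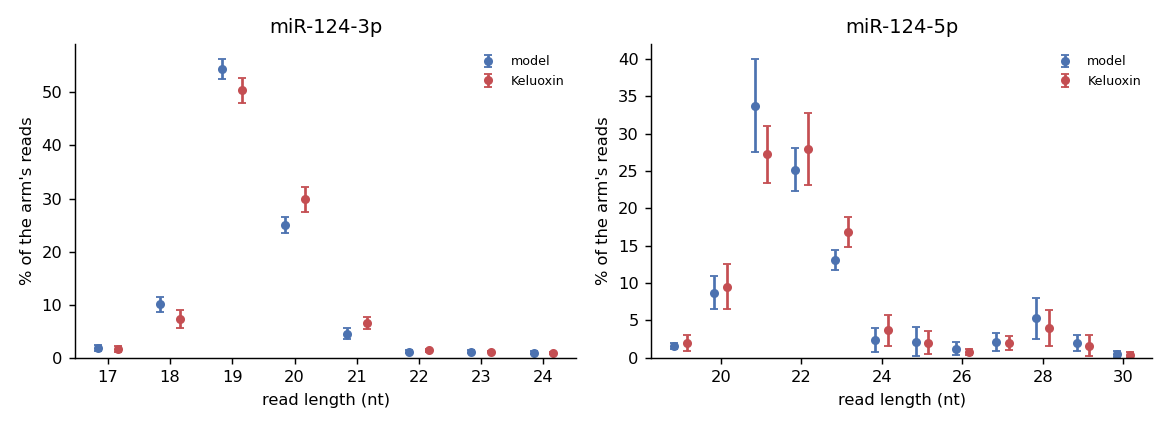
Share of reads by length for the 3p arm and the 5p arm, mean ± SD over 6 libraries of each group. Among listed reads, the 3p arm has a single high point at 19 nt in both groups and is higher at 20 nt in Keluoxin (25.02% against 29.83%). The 5p arm is spread over 20 to 23 nt with a small rise at 28 nt. Untemplated ends were not listed at all lengths of the 3p arm, as described in the text.

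The last base of a read can be one that the hairpin does not have, as when an enzyme adds a base to a trimmed end; here it is called untemplated, without regard to its source. An untemplated A ended 10.4% to 11.5% of 3p reads in model (median 10.9%) and 5.93% to 10.2% in Keluoxin (median 9.17%). All Keluoxin libraries lay below all model libraries, and Keluoxin replicate 4 was the lowest. The means were 10.9% ± 0.43 and 8.79% ± 1.604 (SD, n = 6 each; by an exact permutation test p = 0.00216, the smallest 924 assignments can give, adjusted p = 0.0195). Fitted with limma over the 413 arms the fall was 2.14 percentage points (SE 0.66, adjusted p = 0.0470); 15.3% of these arms were lower and 2.42% higher, and in 9.20% all Keluoxin libraries lay below all model libraries. In the other annotated miRNA reads pooled the untemplated A stood at 11.8% ± 0.57 and 10.8% ± 1.21.

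Untemplated U was the more frequent end of miR-124-3p. It closed 22.01% ± 2.88 of 3p reads in the model and 19.17% ± 3.00 in the Keluoxin group (SD, n = 6 each), and the difference did not pass (exact permutation test, p = 0.119, adjusted p = 0.268). The arm ranked 60 of 413 for this share, against a median arm at 4.27%. On the 5p arm the order of the bases was another one: A, C, G and U closed 8.87%, 5.32%, 6.74% and 3.00% of reads in model, and 7.79%, 9.07%, 8.37% and 3.91% in Keluoxin.

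The untemplated ends of miR-124-3p were listed at some read lengths and not at others, which limits these shares. If longer reads with such ends are missing, the 3p length shares, mean length and share of the 20-nt read are affected too. Whether they are missing was not tested. Of reads with the main start, 21.96% of those of 17 nt, 21.1% of those of 18 nt and 45.1% of those of 19 nt had an untemplated last base. Of 275528 reads of 20 nt with that start none was listed with one, and none at 21, 22, 23 or 24 nt. Reads with the upstream start showed the same gap at the same bases of the hairpin, with 46.7% of those of 20 nt and none of 62566 of 21 nt. Among 316 classes of annotated arm and length with at least 10000 reads, the median class had 28.4% of such ends; 12 classes of 5 arms had none, and 5 of the 12 belong to miR-124-3p, the others to miR-126a-3p, miR-129-2-3p, miR-690-3p and miR-9-3p. The tables list only sequences with at least 2 reads, so no upper limit is given for these zeros.

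**Figure D3:**
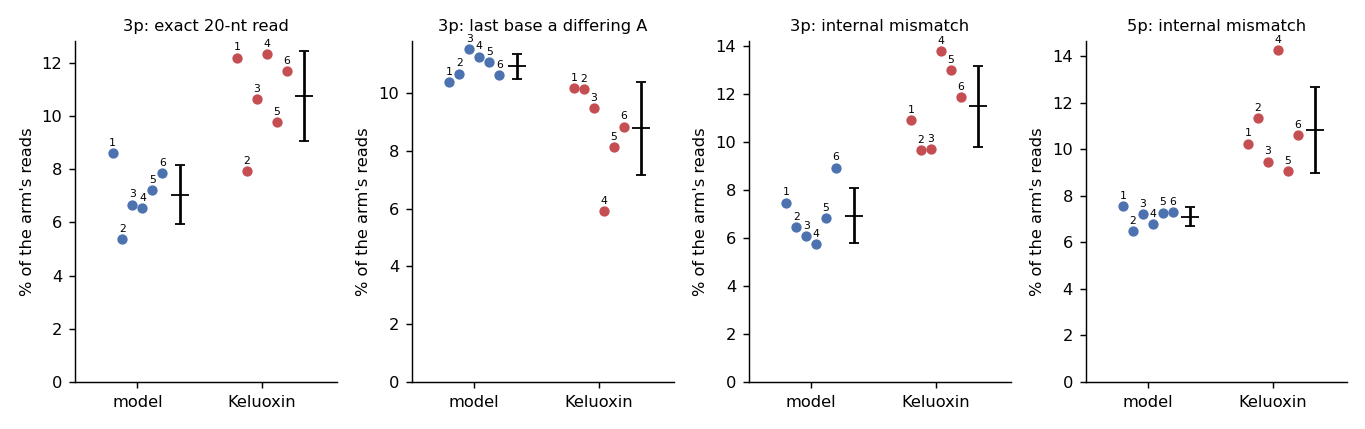
Share of reads in each library for 4 forms of miR-124 reads, each in percent of the arm's reads (points with replicate numbers; bars show mean ± SD, n = 6). The groups do not overlap for the differing last A or for the internal mismatches of either arm, while for the exact 20-nt read Keluoxin replicate 2, at 7.94%, lies within the model range.

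Differences from the hairpin before the last base, called internal mismatches, were more frequent in Keluoxin on both arms; this measure was chosen after the data were seen. On miR-124-3p the lowest, median and highest shares were 5.74%, 6.65% and 8.94% in model and 9.66%, 11.4% and 13.8% in Keluoxin. On miR-124-5p they were 6.47%, 7.25% and 7.57%, and 9.06%, 10.4% and 14.2%. On each arm all Keluoxin libraries lay above all model libraries. The means were 6.93% ± 1.15 and 11.5% ± 1.71 for 3p and 7.10% ± 0.40 and 10.8% ± 1.86 for 5p (SD, n = 6 each; exact permutation tests, p = 0.00216 and adjusted p = 0.00758 over 7 measures, for each arm).

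This was not particular to miR-124. All other annotated miRNA reads, pooled, moved from 8.05% ± 0.53 to 11.3% ± 1.51, again without overlap between the groups. Over 413 arms, limma called 46.5% higher and 4.60% lower, and in 25.7% all Keluoxin libraries lay above all model libraries. miR-124-3p rose by 4.57 percentage points (SE 0.82, limma adjusted p = 0.00149), where the median arm differed by 2.46. The 5p side of miR-124, here with its offset reads, rose by 3.64 (SE 0.75, limma adjusted p = 0.00277). The share of 3p reads with any mismatch did not pass (42.1% ± 2.1 and 43.0% ± 3.8, exact permutation test, adjusted p = 0.711). For reads of the 5p side that share rose by 9.39 percentage points (SE 1.16, limma adjusted p = 8.19e-05). In the same fit 233 of 413 arms were higher and 14 lower, and the median arm differed by 5.7.

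Taken position by position, also chosen after the data were seen, the differences that passed lay towards the 3′ end, outside the seed. Other arms were not examined by position, so whether this placement is particular to miR-124 was not tested. On the 3p arm, 5 of 20 positions, 15 to 19, had a higher share in Keluoxin (exact permutation tests adjusted over 20 positions), and none had a lower one. At position 16 the share was 0.52% ± 0.09 in model and 1.05% ± 0.24 in Keluoxin without overlap (exact permutation test, p = 0.00216, adjusted p = 0.0216), and the most frequent change there was A16G. At position 17 it was 0.88% ± 0.44 and 2.31% ± 0.83 (adjusted p = 0.0216), and at position 18 0.84% ± 0.39 and 2.20% ± 0.56 (adjusted p = 0.0216). None of the 7 seed positions of 3p passed, and mismatches in the 3p seed stood at 1.58% ± 0.08 and 1.83% ± 0.54 of reads (exact permutation test, p = 0.284, adjusted p = 0.461).

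On the 5p arm 3 of 22 positions passed, 18, 19 and 21, all higher in Keluoxin. At position 21 the share was 1.25% ± 0.26 in model and 2.97% ± 0.63 in Keluoxin without overlap (exact permutation test, p = 0.00216, adjusted p = 0.0238), with A21G as the most frequent change. None of the 7 seed positions of 5p passed, and all 7 had a lower mean in Keluoxin.

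**Figure D4:**
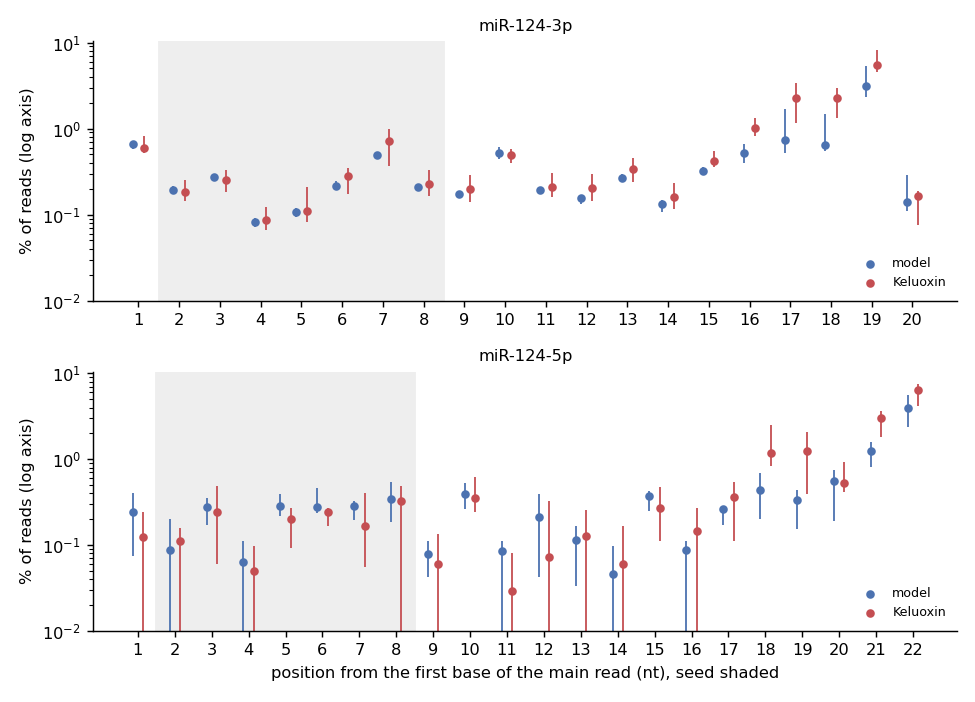
Share of reads with a mismatch at each position of the 3p and 5p arms, counted from the first base of the main read, on a log axis (points show the median and lines the lowest to the highest of 6 libraries; a value of 0 is drawn at the foot of the axis; the seed is shaded). The differences that passed lie at positions 15 to 19 of the 3p arm and at positions 18, 19 and 21 of the 5p arm. The medians also lie apart at position 22 of the 5p arm (3.96% in model, 6.43% in Keluoxin) and at position 7 of the 3p seed (0.49% and 0.71%), which did not pass.

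A few longer 3p reads carried a base change of their own. Of 2637 reads of 25 nt or more that cover position 22, 740, or 28.1%, had A22G, and it was present in all 12 libraries, with 37 to 91 reads each. It was seen on reads listed for copy 1 alone (237 of 788), copy 3 alone (264 of 951) and copy 2 alone (26 of 71). In 51388 reads of 23 to 24 nt that also cover position 22 no other base was listed there. The cause of this gap was not tested.

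The few reads listed for some copies and not for others lie before the 5p arm, near the loop or past the 3p arm. They reach beyond the stretches that the hairpins share, except for the 3p reads of mir-124-3 described below. Over all libraries 2332 reads fitted mir-124-1 alone, 7270 mir-124-2 alone, 1120 mir-124-3 alone and 4705 both mir-124-2 and mir-124-3. Each of the 3 hairpins thus had reads listed for it alone. For mir-124-2, 7039 of the 7270 were the offset fragment described next, and for mir-124-3, 1116 of 1120 were 3p reads. As printed, mir-124-2 and mir-124-3 have the same bases from just before the 3p start to the end of mir-124-3. No base of that stretch separates these 1116 reads from mir-124-2, so they do not show that mir-124-3 was read. Why they were listed for mir-124-3 alone was not tested.

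The share of mir-124-1, whose host is Rncr3, was taken among the reads that separate it from mir-124-2 and mir-124-3. Those are a small and unusually long part of each arm, so the share does not give the part of mir-124-1 in all miR-124 reads. On the 3p arm they include the 1116 reads listed for mir-124-3 alone. On the 5p arm the share of mir-124-1 had a lowest value of 12.01%, a median of 24.8% and a highest of 36.4% in model, and of 26%, 27.8% and 30.3% in Keluoxin. Model replicates 2 and 6 marked the ends of the range, and the Keluoxin libraries lay close together within it. The means were 24.1% ± 7.9 and 27.8% ± 1.7 (SD, n = 6 each; exact permutation test, p = 0.329, adjusted p = 0.461), on 154 to 946 reads per library. Without model replicate 6 the difference was 6.13 percentage points and passed (adjusted p = 0.0152). On the 3p arm the share was 31.4% ± 4.5 and 30.0% ± 3.5 (exact permutation test, p = 0.537, adjusted p = 0.537), on 114 to 318 reads per library, for which the widest 95% Wilson interval ran from 20.6% to 36.9%.

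mir-124-2 also gave a fragment from outside the mature arms. Such offset fragments lie directly next to a mature arm, on the far side of the Drosha cut. The most frequent one is shown because it ends where the 5p arm begins.
offset read of mir-124-2: gatcagagactctgctctc
Of 7047 offset reads, 7039 or 99.9% fitted mir-124-2 alone. Of them, 60.9% ended at the base directly before the first base of the 5p arm, and 94.8% within 2 bases of that point. Their mean length was 19.6 nt. The bases before the 5p arm are 24 in the deposited mir-124-2 hairpin, 13 in mir-124-1 and 5 in mir-124-3, so the deposited hairpins of mir-124-1 and mir-124-3 are shorter on that side than such a read.

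Offset reads took between 4.06% and 22.99% of all reads of the 5p side. In model the lowest, median and highest shares were 4.18%, 8.33% and 11.8%, and in Keluoxin 4.06%, 10.7% and 22.99%. Keluoxin replicates 2, 3 and 5 lay above all model libraries, and the other 3 Keluoxin libraries lay within or near the model range. The means were 8.15% ± 2.54 and 12.3% ± 7.85, and the difference of 4.15 percentage points did not pass (SD, n = 6 each; exact permutation test, p = 0.260, adjusted p = 0.461). It was 2.02 without Keluoxin replicate 3 and 2.68 without Keluoxin replicate 2, and up to 5.80 without another library.

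**Figure D5:**
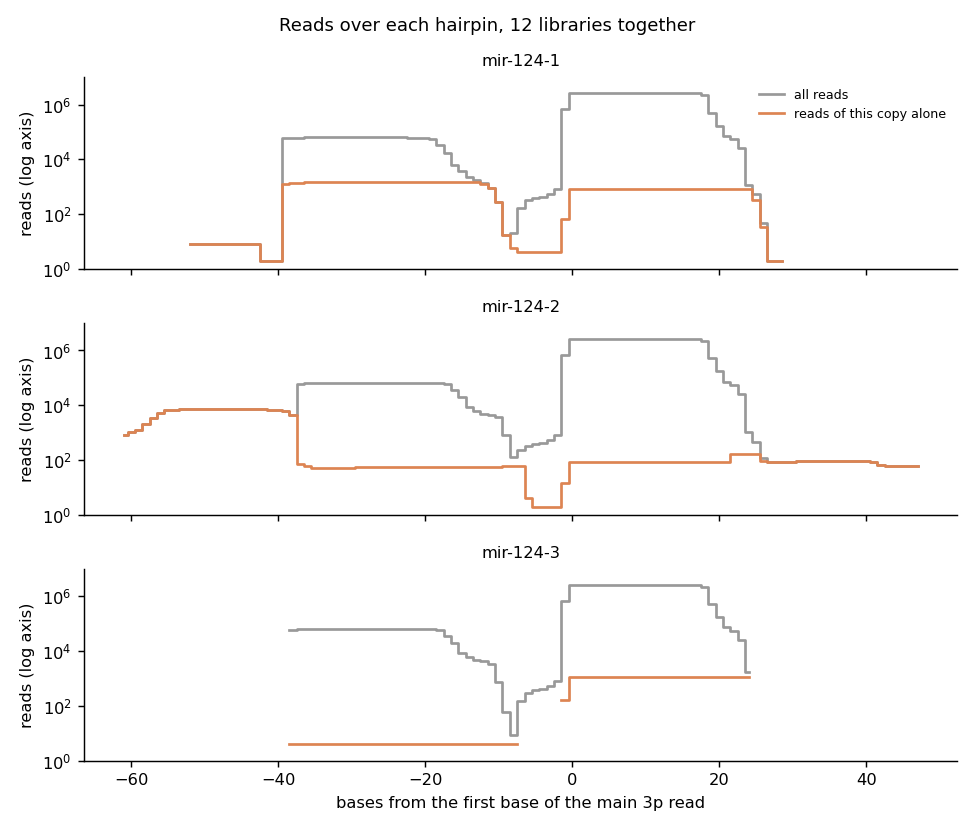
Reads over each miR-124 hairpin in the 12 libraries together, on a log axis, by distance from the first base of the main 3p read (grey, all reads that align to the copy; orange, reads that fit that copy alone). The 3p block is the highest in each copy, and mir-124-2 alone has a block of reads directly before its 5p arm, made of the 7039 offset reads.

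The 5p arm differed from the 3p arm by a second set of long reads. Reads of 26 nt or longer, which run into the loop, took 3.83% to 18.03% of 5p reads in model and 4.73% to 15.7% in Keluoxin, and the means of 11.2% ± 6.0 and 8.81% ± 5.03 overlapped widely (SD, n = 6 each; exact permutation test, p = 0.437, adjusted p = 0.510). The most frequent of them, at 2.56% of 5p reads, has 28 nt, and its last bases, where mir-124-1 differs, restrict it to mir-124-2 and mir-124-3. It is shown with its seed in capitals.
miR-124-5p 28-nt read: cGTGTTCAcagcggaccttgatttaatg
The mean length of 5p-side reads was 21.93 ± 0.53 nt in model and 21.99 ± 0.40 nt in Keluoxin (exact permutation test, adjusted p = 0.833). Without offset reads the means were 22.24 ± 0.56 nt and 22.21 ± 0.43 nt, so the sign of the small difference depends on them.

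Among 178 annotated arms with at least 100 CPM, those whose log2 CPM was most like that of miR-124-3p over the 12 libraries were miR-375-3p (Pearson r 0.84), miR-183-3p (0.75), miR-126a-3p (0.75), miR-9-3p (0.74) and miR-203-3p (0.73). The median r was 0.11, and the points share library, depth and scaling, so these are descriptions of this set. Of the 5, all but miR-9-3p were called lower in Keluoxin, by 0.39 (miR-375-3p, edgeR adjusted p = 0.0162) to 0.82 (miR-203-3p, adjusted p = 0.0162) on the log2 scale. The r was taken over both groups together, and miR-124-3p had the lower mean in Keluoxin. The choice thus favours arms that are lower in Keluoxin, and these calls are not separate from it. miR-124-5p, the other strand of the same hairpins with the offset reads counted in, had an r of 0.29 and ranked 66.

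Other miRNAs that are known from neurons and retina were taken from a list of 22 names with 43 arms tested. Of these, 9 were lower and 1, miR-181c-5p, was higher in Keluoxin, against 8.01% lower and 9.25% higher among all 811 arms and 9.59% lower and 4.11% higher among 511 annotated ones. The median log2 fold change of the list was −0.15, beside 0.03 for all arms and −0.12 for annotated arms. The most abundant arms of the list were miR-182-5p and miR-183-5p, of the photoreceptor cluster, and miR-9-5p, a neuronal miRNA. miR-182-5p was lower, whereas miR-183-5p (−0.19, edgeR adjusted p = 0.438) and miR-9-5p (−0.24, adjusted p = 0.246) did not pass, as with miR-124-3p. In the same photoreceptor cluster miR-96-5p had the opposite sign (0.28, edgeR adjusted p = 0.0538) and did not pass. The other lower arms were miR-125b-5p, miR-129-1-3p, miR-129-5p, miR-183-3p, miR-219a-1-3p, miR-330-3p, miR-330-5p and miR-335-3p, with falls of 0.40 (miR-129-5p) to 1.18 (miR-219a-1-3p, about 1 to 2 CPM). miR-181c-5p stood at 115.1 ± 10.4 CPM in model and was higher in Keluoxin at 156.9 ± 15.96 CPM (edgeR log2 fold change 0.45, SE 0.11, adjusted p = 0.0162), and without Keluoxin replicate 3 its adjusted p was 0.0561. miR-129-1-3p and miR-129-5p passed in 4 and 6 of 12 fits with 1 library left out.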

How the data were processed

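Each deposited table of a library lists distinct read sequences of at least 2 reads and 15 to 51 nt, with their read count, the precursor, the position and at most 1 difference, per the file headers and values. The counts deposited by the authors are whole reads divided by the number of precursors matched; the undivided number in the tag name was used. The other deposited values, positions and sequences, carry no unit, and positions have 5 added. Bowtie, Novoalign, cutadapt and bcl2fastq appear, with no version or role, in the submitters' processing notes; the build and miRBase release are not given in the sources used. Precursor coordinates come from an exact match to GENCODE M21.

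Reads shared by copies were counted once and assigned to 5p or 3p by the side of the precursor's middle; 159 miR-124 reads that also fit 1 predicted precursor were kept. Offset reads start more than 3 bases before the main 5p start, and shares of the 5p arm leave them out, whereas the 5p level, the ratio and values of the 5p side hold them. The fit over all arms used edgeR 4.0.16 (TMM, low-count filter, quasi-likelihood test) in R 4.3.3, limma 3.58.1 for ratios (0.5 added to each count, at least 10 reads in 6 libraries) and read forms, and exact permutation tests over 924 assignments (smallest p 0.00216), adjusted over 9 measures and over 7 measures added after the data were seen. On simulated data 10.4%, 64.2% and 81.8% of arms changed 1.5-fold, 2-fold and 4-fold were recovered (67, 67 and 66 of 811 arms), and 67.6% of 37 of 147 shifted ratios. 95% Wilson intervals cover counting error only, and the widest for a 3p share was ± 0.366 percentage points on 69370 reads. Alternatives were RLE, upper-quartile and total-read scaling, no filter, DESeq2 1.42.0, reads of 18 to 26 nt, reads without mismatch, sequences of at least 10 reads, annotated precursors only, the deposited divided counts, a pseudocount of 5, a replicate block and each library left out. Named were both arms of miR-124, the 5 arms most like miR-124-3p, the called and the 3 most abundant arms of the neuronal and retinal list, and the 5 most frequent reads of each arm. The 18-nt, 28-nt and offset reads and miR-96-5p were chosen after their values were seen. Members, lists and measures were chosen with earlier results of these data known. Whether the replicate numbers pair the libraries is not labelled and was not settled, and the main tests are unpaired. Python 3.11.15 with pandas 2.3.3, NumPy 2.4.6 and SciPy 1.17.1 was used.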

Additional observations from a re-analysis of the deposited data

Results flagged for a closer look

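In 3 of 40 groups of 6 values examined, 1 library stood apart from the other 5 by a gap above Dixon's limit, which chance gives in about 1 of 20 groups. Keluoxin replicate 2 had the shortest 3p reads of its group, at 19.29 nt with the next at 19.43 nt, and the lowest miR-124-5p level, 873.5 CPM with the next at 1073. Model replicate 2 had the lowest share of 5p reads starting at the main base, 77.79% with the next at 84.29%.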

How the results depend on the processing

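miR-124-3p and miR-124-5p stayed below 0 in all settings tried and passed with upper-quartile scaling alone among the settings with all libraries (−0.61 and −0.60). With 1 library left out, the 3p fold change ran from −0.43 to −0.27, the 5p fold change from −0.44 to −0.22 and the number of called arms from 72 (without model replicate 4) to 244 (without model replicate 1), with 82 without model replicate 3 and 93 without model replicate 5. DESeq2 called 231 arms and the annotated precursors alone gave 68 of 508, a smaller set by construction. Scaling to total reads called 89 arms higher and 26 lower, upper-quartile scaling 72 and 110, and the main scaling 75 and 65. The arm ratio turned to −0.14 in reads without mismatch and ran from −0.078 to 0.16 with 1 library left out. The main-start share of 3p turned to 0.13 in reads without mismatch and ran from −0.37 to 0.0071. The 5p mean length turned to −0.025 with sequences of at least 10 reads and to −0.034 without offset reads, and ran from −0.076 to 0.22. The 3p mean length ran from 0.10 to 0.17, the mismatch share of 3p from −0.10 to 2.08 and the copy 1 share of 5p from 1.26 to 6.13. The cause of these turns was not tested. The 20-nt read, the untemplated A and the internal mismatches of both arms passed in all 12 fits with 1 library left out.

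Whether replicate numbers pair the libraries was not settled. Same-number correlations ran from 0.04 to 0.24, with 4 of 6 over 0.1, and 1 model library was most like its own number. Some read forms did follow the number. The upstream start of 3p was lowest in replicate 5 (23.64% in model, 24.14% in Keluoxin) and highest in replicate 4 (25.4% and 25.85%). The 3p mean length was lowest in replicate 2 of both groups. The miR-124-3p level did not follow it, being highest in model replicate 5 and Keluoxin replicate 4. With a replicate block the fold changes were −0.35 and −0.30, 137 arms passed, and the ratio difference was 0.05. Sign-flip tests over pairs, whose smallest p is 0.0312, gave adjusted p = 0.0938 for the 20-nt read (3.72) and the untemplated A (−2.14), and 0.109 for the internal mismatches of 3p (4.57) and 5p (3.72). For the 16 named arms outside miR-124, which leave out miR-96-5p, 36 of 343 refits lost a call and none turned in sign. Depth limits the copy shares most, with 114 reads in the smallest library.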

Other observations

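Other read classes of the hairpins were scarce. Loop reads that start between the arms came to 286 over all libraries, of which 15 fitted mir-124-1 alone and 4 mir-124-2 alone. The upstream-start 3p reads repeated the ends of the main-start ones, counted here as reads that match the hairpin up to their last base. Those that match it there too, ending in C, took 46.3% ± 1.98 of upstream reads of 20 nt in model and 45.3% ± 4.6 in Keluoxin, and 48.2% ± 2.2 and 47.5% ± 4.7 of main-start reads of 19 nt. Those with an untemplated last G took 2.05% ± 0.23 and 3.72% ± 1.21 of main-start 19-nt reads, and 2.22% ± 0.27 and 3.89% ± 1.27 of upstream 20-nt reads. Model replicate 1, which sits with the Keluoxin libraries on the main component of variance, had the lowest miR-124-3p level and the highest share of the exact 20-nt read of its group, 36390 CPM and 8.60%.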
